A study of Bos taurus with 12 samples.

Results

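The insulin-like growth factor (IGF) binding proteins are described here through 6 of the 18436 genes in the deposited expression table, IGFBP2, IGFBP3, IGFBP4, IGFBP5, IGFBP6 and IGFBP7, together with their peaks of N6-methyladenosine (m6A). The members were taken by gene name from the expression table and from the gene assignments in the 2 peak lists. The members were chosen by name with their FPKM in the 2 culture conditions, and so the difference between these conditions, already known. For that reason, the expression differences of the members are given as a description, with no p-value, and nothing is rested on them. IGFBP1, the remaining classical member of the family, was not on the list: its level was 0 FPKM in 5 of the 6 input libraries and 0.0428 FPKM in the library labelled DM 2.

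The study measured mRNA levels and m6A in bovine primary muscle cells before and during differentiation. The primary myoblasts were of newborn Qinchuan cattle and came from the longissimus dorsi, a back muscle. The GM cultures were kept in growth medium with 20% fetal bovine serum and were taken at 80% confluence, on day 0, and are called myoblasts. The DM cultures were at full confluence per the series' design text, after 4 days in differentiation medium with 2% horse serum, and are called myotubes. No gene was altered in either group, and serum, confluence, time in culture and differentiation cannot be told apart in this comparison. There were 3 GM and 3 DM cultures, each giving 1 input library (RNA before immunoprecipitation) and 1 immunoprecipitated library. The methods speak of cells from 1 newborn animal, so any p-value below measures the spread between cultures rather than between animals.

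IGF binding proteins are secreted proteins that hold IGF1 and IGF2 outside the cell, set how much of these ligands reaches the IGF1 receptor, and prolong their life in blood and tissue fluid. Most of the family binds the ligands with high affinity, whereas IGFBP7 binds them weakly and is better known as a matrix protein, and IGFBP6 prefers IGF2. In skeletal muscle cells the ligands promote both proliferation and differentiation, and muscle cells make several of the binding proteins themselves.

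The input libraries were of similar depth. The most frequent ratio between the lowest values of 2 libraries, which is the worth of 1 read against 1 read, placed their depths between 0.9 and 1.02 times that of GM 1, while the files analysed here hold no read totals. Pearson correlations of log2(FPKM + 1) were 0.995 to 0.997 between libraries of the same condition. Of the 9 myogenic markers examined, all had a mean of at least 0.5 FPKM. MYH3 (embryonic myosin heavy chain) and CKM (muscle creatine kinase) rose in DM, and MYOD1, MYF5, PAX7 and ACTA1 (skeletal muscle actin) fell. MYOG (means of 197 FPKM in GM and 243 FPKM in DM), MYMK (41.1 and 47.3 FPKM) and DES (453 and 488.5 FPKM) did not pass the call rule. MYH3 already had a mean of 273 FPKM in GM, so several of these muscle genes were well expressed in both conditions. The 6 fibroblast markers were abundant in every library, with a summed level of 10282 to 10429 FPKM in GM and 11633 to 12197 FPKM in DM. None of the 6 passed the call rule described below, and 3 had an adjusted p under 0.05 in limma, all in the direction of DM. The defining markers of endothelial cells and macrophages were at or near 0, with CDH5 at most 0.0446 FPKM and CSF1R at most 0.0458 FPKM. The summed levels were at most 0.653 FPKM for the endothelial markers, 1.98 FPKM for the macrophage markers and 2.66 FPKM for the adipocyte markers. The part of the fibroblast-type cells in the levels given below was not tested, and fewer cells of a type cannot be told apart from less RNA per cell in these cultures.

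Levels are given in FPKM, fragments scaled to the length of the exons and to the number of mapped fragments, which are per length and can be set side by side between genes. In GM, 4 members lay close together, with means of 99.4 to 115 FPKM. In DM the same genes spread over more than a 10-fold range, with IGFBP7 at the top and IGFBP5 at the bottom. IGFBP5 fell from a mean above 96.7% of all genes in GM to a mean above 65.9% of them in DM. IGFBP2, IGFBP3 and IGFBP6 were lower in DM, IGFBP7 was higher in DM, and the FPKM of IGFBP4 overlapped between the conditions.

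IGFBP5, the most conserved member of the family, binds extracellular matrix as well as IGFs and is made by differentiating muscle cell lines. Its level was 106.2, 102.8 and 89.0 FPKM in GM 1, 2 and 3, and 7.27, 8.96 and 6.66 FPKM in DM 1, 2 and 3. Every GM library was far above every DM library. The means were 99.4 ± 9.10 FPKM (SD, n = 3) in GM and 7.63 ± 1.19 FPKM (SD, n = 3) in DM, a ratio of 13.0 of GM over DM. On the scale of log2(FPKM + 1) the difference of DM minus GM was -3.54, with a standard error of 0.11 and a 95% confidence interval of -3.79 to -3.30. By mean level IGFBP5 stood at place 600 of the 18436 genes in GM and at place 6280 in DM.

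IGFBP3, the main carrier of IGFs in blood, was the least abundant member in GM. Its level was 24.8, 25.1 and 24.1 FPKM in the 3 GM libraries and 8.77, 9.07 and 9.09 FPKM in the 3 DM libraries. The groups did not overlap, and replicate values within each group differed less, in relative terms, than for any other member. The means were 24.7 ± 0.498 FPKM and 8.98 ± 0.180 FPKM (SD, n = 3 each), a ratio of 2.75 of GM over DM, and the log2 difference was -1.36 with a standard error of 0.05. IGFBP3 went from place 2569 to place 5681 among all genes.

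IGFBP6, the member that prefers IGF2, had 78.1, 77.8 and 84.1 FPKM in GM and 38.0, 41.7 and 38.5 FPKM in DM. All GM libraries were above all DM libraries. The mean level was 2.03 times higher in GM (80.0 ± 3.59 FPKM against 39.4 ± 2.02 FPKM, SD, n = 3 each), with a log2 difference of -1.0 and a standard error of 0.06.

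IGFBP2, which can bind cell surface integrins besides the ligands, had 106.2, 103.7 and 130.0 FPKM in GM and 60.9, 71.1 and 58.1 FPKM in DM. GM 3 stood above the other GM cultures and DM 2 above the other DM cultures, but the groups did not overlap. The means were 113 ± 14.5 FPKM in GM and 63.4 ± 6.86 FPKM in DM (SD, n = 3 each), a ratio of 1.79 of GM over DM. The log2 difference was -0.83, with a standard error of 0.10 and a 95% confidence interval of -1.06 to -0.59.

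IGFBP4, a member known mainly for holding IGFs inactive until the protease PAPPA cleaves it, had 103.2, 106.3 and 113.0 FPKM in GM and 114.4, 112.9 and 107.6 FPKM in DM. The groups overlapped, with DM 3 inside the range of GM and GM 3 inside the range of DM. The means were 107 ± 4.97 FPKM and 112 ± 3.55 FPKM (SD, n = 3 each). The log2 difference was 0.05 with a standard error of 0.05, and it depended on the scaling: it was 0.12 with median-of-ratios size factors and 0.18 on TPM (FPKM rescaled to the same sum in every library), with standard errors of 0.06 and 0.05. On TPM the groups did not overlap, with every DM library above every GM library.

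IGFBP7, the weak IGF binder of the extracellular matrix, was the only member with a higher mean in DM whose groups were apart in FPKM as deposited. Its level was 106.0, 114.1 and 126.1 FPKM in GM and 178.7, 206.6 and 172.9 FPKM in DM. Each DM library was above each GM library. The means were 115 ± 10.1 FPKM and 186 ± 18.0 FPKM (SD, n = 3 each), a ratio of 1.61 of DM over GM, and the log2 difference was 0.68 with a standard error of 0.09 and a 95% confidence interval of 0.49 to 0.88. IGFBP7 moved from place 516 to place 297 among all genes.

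**Figure D1:**
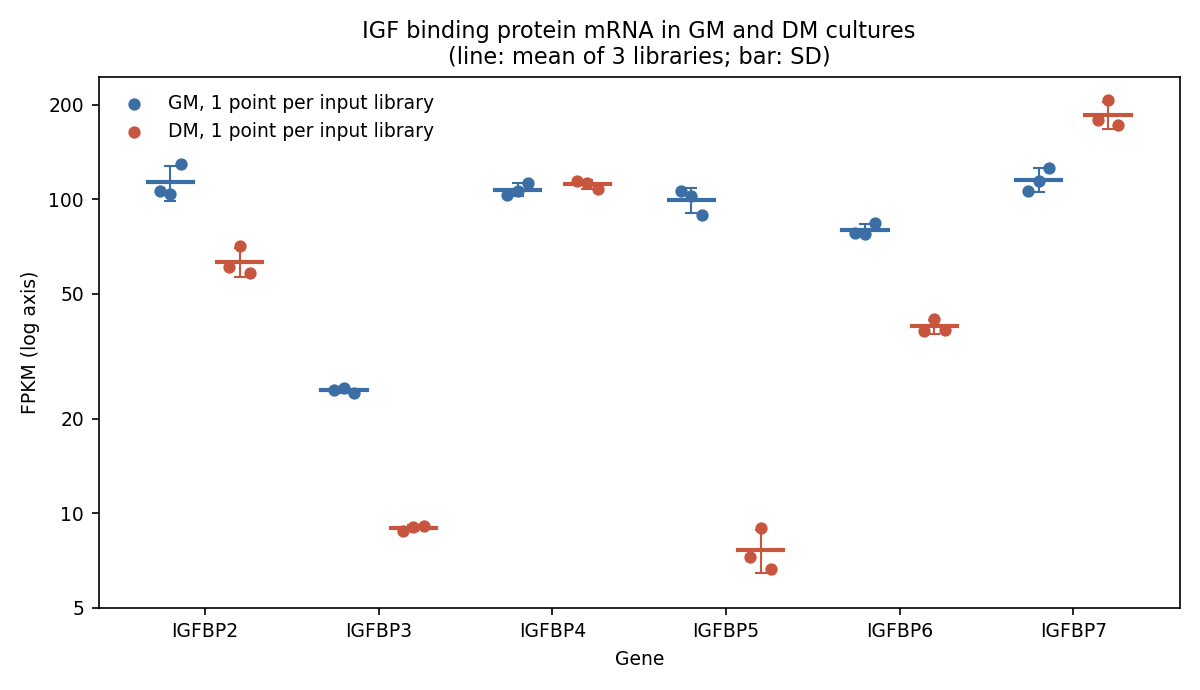
Level of each IGF binding protein gene in FPKM (log axis) in the 3 GM and 3 DM input libraries, with 1 point per library, the mean as a line and the SD as a bar. IGFBP5 falls from a mean of 99.4 to 7.63 FPKM, IGFBP7 lies higher in DM, and the points of IGFBP4 overlap.

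All 6 members had a mean of at least 0.5 FPKM and entered the fit over all 12302 genes that did. The call rule followed the thresholds of the study, an unadjusted p under 0.05 and a fold over 1.5, here in limma on log2(FPKM + 1). Of all tested genes, 11.9% passed it (4.90% higher and 6.97% lower in DM). On TPM the split of called genes was 970 higher and 792 lower, against 603 higher and 858 lower as deposited, since the rescaling moved the median log2 difference of all genes from -0.05 to 0.06. Of the members, 5 of 6 met these thresholds, 4 lower and 1 higher in DM, and these were the same numbers on either scale. In FPKM as deposited, libraries of the 2 conditions did not overlap for 5 of the 6 members, where 54.1% of all tested genes had no overlap. These counts are no test of the members, since the thresholds were applied to the same values with which the members were chosen.

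Within each condition the members were ordered by level as follows. In GM the order was IGFBP7, IGFBP2, IGFBP4, IGFBP5, IGFBP6 and IGFBP3. IGFBP7 and IGFBP2, IGFBP2 and IGFBP4, and IGFBP4 and IGFBP5 overlapped between libraries and did not differ beyond their spread, while the lowest IGFBP5 value (89.0 FPKM) was above the highest IGFBP6 value (84.1 FPKM) and IGFBP3 lay well below. In DM the order was IGFBP7, IGFBP4, IGFBP2, IGFBP6, IGFBP3 and IGFBP5. There the first 5 were separated from each other in every library, and only IGFBP3 and IGFBP5 at the low end overlapped.

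The spread between cultures of the same condition was shared by several members. GM 3 was the highest GM library for IGFBP2, IGFBP4, IGFBP6 and IGFBP7 and the lowest for IGFBP3 and IGFBP5. Its largest departures from the GM mean were 0.20 for IGFBP2 and -0.15 for IGFBP5 on the log2(FPKM + 1) scale. DM 2 was the highest DM library for IGFBP2, IGFBP5, IGFBP6 and IGFBP7, by 0.22 above the mean for IGFBP5, and DM 3 was the lowest for 4 of the 6 members. These departures were smaller than the differences between conditions for all members except IGFBP4.

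**Figure D2:**
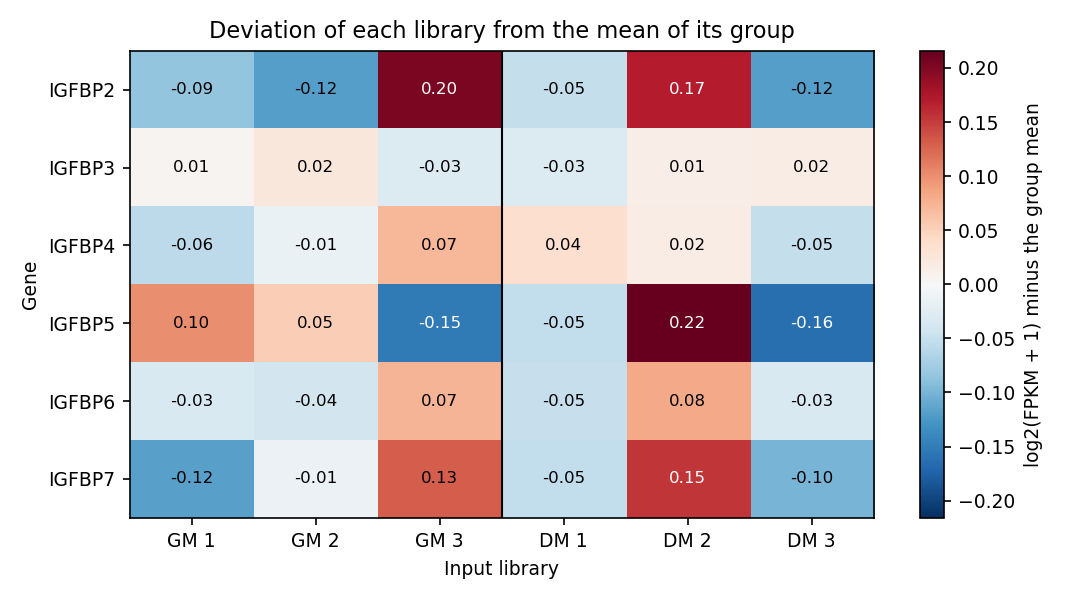
Departure of each input library from the mean of its own group, in log2(FPKM + 1), for the 6 genes (rows) and 6 libraries (columns), with the value printed in each cell. GM 3 and DM 2 hold the largest departures, up to 0.20 for IGFBP2 in GM 3 and 0.22 for IGFBP5 in DM 2.

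The summed level of the 6 genes was 525, 530 and 566 FPKM in GM and 408, 450 and 393 FPKM in DM, with means of 540 ± 22.8 and 417 ± 29.8 FPKM (SD, n = 3 each). The sum in DM was 0.772 times that in GM and the groups did not overlap. The total FPKM of the whole table also differed between conditions, at 415740 to 434458 in GM and 386436 to 390827 in DM, and as a share of that total the members went from 0.127% ± 0.0029 to 0.107% ± 0.0072 (SD, n = 3 each), a ratio of 0.842. Without IGFBP5, the rest summed to 441 ± 31.9 FPKM in GM and 409 ± 28.6 FPKM in DM (SD, n = 3 each), and the libraries of the 2 conditions overlapped. This remainder nets opposite differences, since the lower levels of IGFBP2, IGFBP3 and IGFBP6 in DM are offset in part by the higher level of IGFBP7.

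The make-up of the sum changed more than its size. IGFBP5 made up 18.5% ± 2.41 of the sum in GM and 1.82% ± 0.151 in DM (SD, n = 3 each). IGFBP7 went from 21.3% ± 1.04 to 44.6% ± 1.15, and IGFBP4 from 19.9% ± 0.198 to 26.8% ± 1.57 although its own FPKM overlapped between the conditions. The shares of IGFBP2 (20.9% to 15.2%), IGFBP6 (14.8% to 9.46%) and IGFBP3 (4.58% to 2.16%) were lower in DM.

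**Figure D3:**
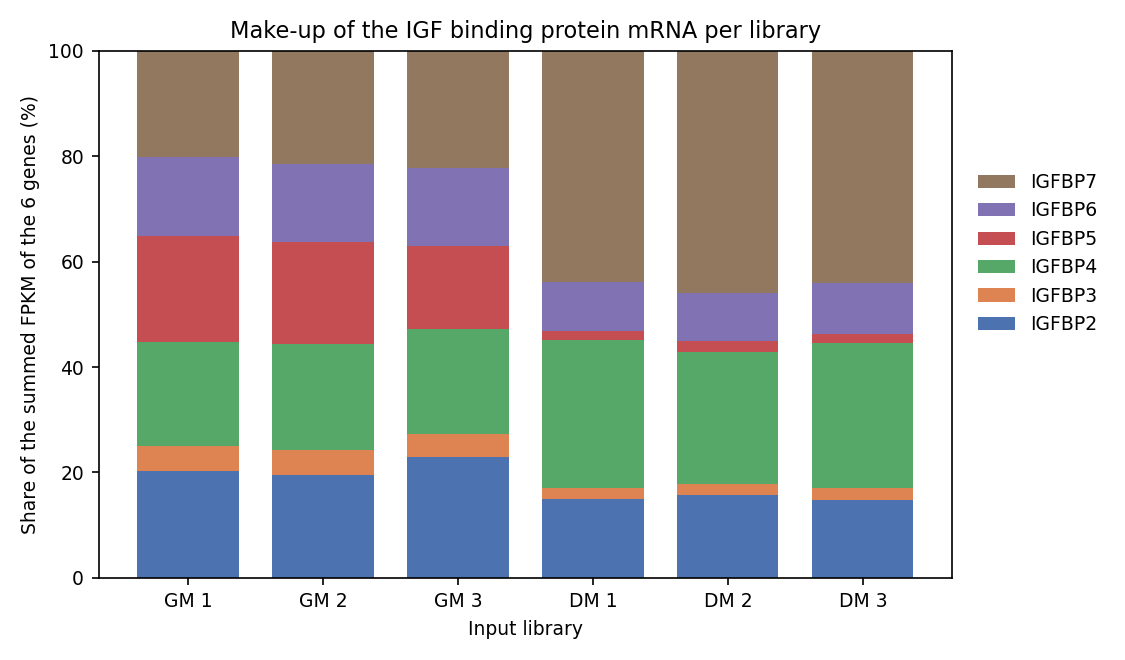
Share of each gene in the summed FPKM of the 6 IGF binding protein genes, in percent, for each input library. IGFBP7 fills a mean of 21.3% of the GM bars and 44.6% of the DM bars, and IGFBP5 goes from 18.5% to 1.82%.

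The ligands give the scale for these sums. IGF2, the fetal growth factor of the family, was the main ligand in both conditions, at 216, 217 and 215 FPKM in GM and 163, 167 and 146 FPKM in DM. It was lower in every DM library, by 0.44 on the log2 scale (standard error 0.06, adjusted p = 0.00056 in limma, Benjamini-Hochberg over all tested genes), which did not reach the 1.5-fold of the call rule. IGF1, the ligand that postnatal growth hormone controls, was low throughout. It rose from 0.224, 0.358 and 0.216 FPKM in GM to 2.42, 1.87 and 2.63 FPKM in DM (log2 difference 1.38, standard error 0.11, adjusted p = 2.7e-05 in limma), and the groups did not overlap. The ratio of the mean FPKM was 8.67 of DM over GM, and since IGF1 was so low in GM its log2 difference was 1.87 with a pseudocount of 0.5, 2.72 with one of 0.1 and 2.09 on TPM. The 2 ligands together summed to a mean of 216 FPKM in GM and 161 FPKM in DM. The summed binding protein level per unit of ligand was 2.50 ± 0.116 in GM and 2.59 ± 0.109 in DM (SD, n = 3 each), values that overlapped between the conditions. The ratio moved by less than its spread between libraries, while the shares of the single binding proteins in it did not overlap for any of the 6. Its sum counts IGFBP7, the weak IGF binder, which made up 21.3% of it in GM and 44.6% in DM. The ratio is therefore no measure of binding capacity per ligand, and a ratio without IGFBP7 was not taken.

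The receptors did not reach the 1.5-fold of the call rule. IGF1R, the signalling receptor for both ligands, had a mean of 33.6 FPKM in GM and 35.4 FPKM in DM (log2 difference 0.07, adjusted p = 0.41 in limma). IGF2R, the clearance receptor for IGF2, had 65.9 and 69.2 FPKM (log2 difference 0.07, adjusted p = 0.31). INSR, the insulin receptor, was at 2.97 and 3.55 FPKM (log2 difference 0.20, adjusted p = 0.045). Of the 5 tested adaptors behind these receptors, 1 passed the rule: IRS2, a docking protein of the insulin and IGF1 receptors, rose from 1.28 to 3.28 FPKM (log2 difference 0.90, adjusted p = 0.00013). IRS1, another of these adaptors, fell from 5.80 to 3.57 FPKM (log2 difference -0.57, adjusted p = 0.00032 in limma), and its groups did not overlap. The ratio of its mean FPKM was 1.62 of GM over DM, but on log2(FPKM + 1) it stayed under 1.5-fold.

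Proteases that cut IGF binding proteins, their inhibitors and IGFALS, the subunit that joins IGFBP3 or IGFBP5 with a ligand into the large serum complex, formed the largest list beside the members. Of its 13 tested genes, 1 rose, 4 fell and 8 did not pass the rule. IGFALS rose from 1.10 ± 0.199 to 3.19 ± 0.303 FPKM (SD, n = 3 each, log2 difference 1.00) while IGFBP3 and IGFBP5 were lower. STC2, an inhibitor of PAPPA, fell from 38.9 ± 2.06 to 15.4 ± 1.14 FPKM (log2 difference -1.28). PAPPA itself, the protease of IGFBP4 and IGFBP5, was low and fell from 1.36 ± 0.144 to 0.550 ± 0.0659 FPKM, a ratio of 2.47 of GM over DM with groups that did not overlap. Its log2 difference of -0.61 was larger in size with a pseudocount of 0.5 (-0.82) or 0.1 (-1.17) and on TPM (-0.80). It was under 1.5-fold without GM 3 (-0.56), without DM 3 (-0.58) and with median-of-ratios size factors (-0.58). ADAMTS1 and ADAMTS4, secreted metalloproteases, fell with log2 differences of -1.18 and -0.83.

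Other genes that encode an IGFBP-type domain without being classical binding proteins moved in both directions. Of the 7 tested, 2 rose and 4 fell. CCN4 (15.3 to 36.9 FPKM, log2 difference 1.22) and CCN2 (813 to 1347 FPKM, 0.72), matricellular proteins, rose. CCN3 (990 to 531 FPKM, -0.90), CCN5 (3.86 to 2.00 FPKM, -0.69) and ESM1, an endothelial proteoglycan (8.11 to 1.54 FPKM, -1.84), fell. CCN1 also fell (383 to 238 FPKM, -0.65), but its 3 GM libraries spread from 273 to 461 FPKM, and without GM 1 (-0.50), without GM 2 (-0.58), on TPM (-0.53) or with median-of-ratios size factors (-0.58) it was under 1.5-fold.

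Over the whole list of IGF system genes outside the members, 35 were in the table and 30 were tested. Of these, 5 rose and 8 fell, 13 in all beside a background of 11.9%, and their median log2 difference was -0.02 against -0.05 over all tested genes. The list was drawn up with earlier results of these data known.

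**Figure D4:**
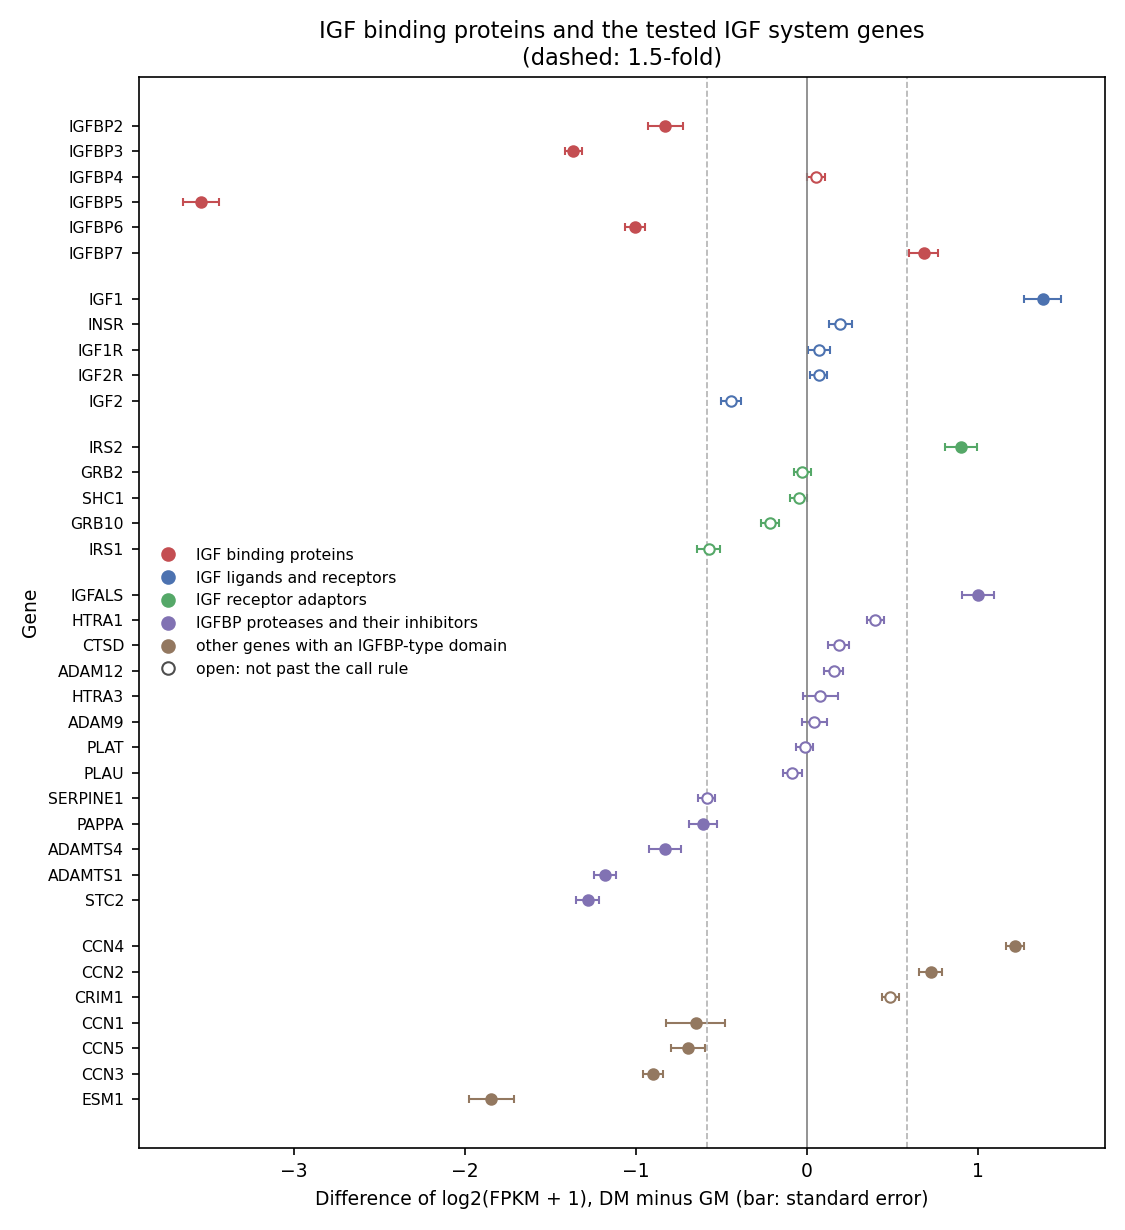
Difference of log2(FPKM + 1), DM minus GM, with its standard error, for the 6 IGF binding proteins and the 30 tested genes of the IGF system list, with dashed lines at 1.5-fold and open circles for genes not past the call rule. IGFBP5 lies farthest to the left at -3.54, and IGF1 farthest to the right at 1.38.

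For the 3 members with a log2 difference over 1 in size, the tested genes with the most similar profile over the 6 libraries were sought, by the root mean square distance between profiles of log2(FPKM + 1) that were each centred on their own mean. Nearest to IGFBP5 were KIF20A (distance 0.055), MKI67 (0.12) and TOP2A (0.16), which encode a mitotic kinesin, the proliferation antigen Ki-67 and a DNA topoisomerase of dividing cells. KIF20A went from 17.6 ± 1.14 to 0.683 ± 0.247 FPKM (SD, n = 3 each), a larger fall in proportion than that of IGFBP5. Its log2 difference of -3.47 was near that of IGFBP5 because the added 1 FPKM shortens it at this far lower level. Nearest to IGFBP3 were SMURF2, a ubiquitin ligase (0.026), SAMD11 (0.029) and FOXM1, a transcription factor of the cell cycle (0.033). IGFBP6 passed the cut narrowly, at -1.0035. It was under it on TPM (-0.89), with median-of-ratios size factors (-0.94) and without GM 3 (-0.97), DM 1 (-0.98) or DM 3 (-0.99). In the other settings of the fit it was over the cut. Nearest to IGFBP6 were MCM3, a subunit of the replicative helicase (0.026), TUBB, a beta-tubulin (0.030), and PAX7, the satellite cell transcription factor (0.032). Several of these genes are low enough in DM for the added 1 FPKM to shorten their difference: PAX7 went from 1.08 to 0.0624 FPKM and FOXM1 from 1.99 to 0.144 FPKM. In proportion these falls were larger than those of the members they stand beside. The measure rests on 6 libraries of 2 conditions and follows mainly the size of the difference between them.

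The Gene Ontology terms of the expression table give features that the members share. All 6 carry IGF binding, a term that 20 genes of the table carry in all. IGF-I binding and IGF-II binding were each assigned to IGFBP2 to IGFBP6 and not to IGFBP7. IGFBP3, IGFBP5 and IGFBP6 share fibronectin binding, and IGFBP3 and IGFBP5 share the ternary complex of IGF with IGF1 and IGFALS as the other tested genes of that term.

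On the ARS-UCD1.2 assembly, IGFBP2 lies on chromosome 2 from 104619851 to 104649017 on the plus strand and IGFBP5 from 104659123 to 104680014 on the minus strand. The 3′ ends of this pair face each other across a gap of 10105 bases, and both genes were lower in DM, by 1.79-fold and 13.0-fold. IGFBP3 lies on chromosome 4 from 76116349 to 76124835 on the plus strand, tail to tail with the IGFBP1 gene at a gap of 6451 bases. IGFBP4 is on chromosome 19 from 40672669 to 40684245 on the plus strand, IGFBP6 on chromosome 5 from 26878956 to 26883908 on the minus strand, and IGFBP7 on chromosome 6 from 72405716 to 72486115 on the minus strand. No member overlapped another gene of the table. The nearest neighbour was POLR2B, 103 bases from the 3′ end of IGFBP7 and on the other strand, followed by SOAT2 at 1097 bases from IGFBP6.

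The list of members was drawn up with results of these data in view, so the m6A values are also given as a description. m6A is a methyl mark on adenosines inside mRNA, read here by immunoprecipitating RNA fragments with an antibody and comparing them with the input. The deposited lists hold exomePeak peaks called once per condition on pooled libraries, so each fold enrichment (immunoprecipitate over input in the peak) is 1 value per condition with no replicate error and no test between conditions. Of the tested genes, 70.9% had a peak in GM and 78.7% in DM. Among the members, 5 of 6 had a peak in GM (7 peaks) and 4 of 6 in DM (6 peaks).

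Member peaks were weakly enriched. Their fold enrichment lay between 1.59 and 3.32 in GM and between 1.57 and 2.77 in DM, while all peaks had a median of 3.27 in GM and 3.38 in DM and a lower quartile of 2.11 and 2.05. Of the 7 member peaks in GM, 5 lay under that lower quartile, and so did 5 of the 6 in DM. Of all 13, the IGFBP2 peak in GM was above the median of its list.

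IGFBP7 had no peak in either list. Its means of 115 FPKM in GM and 186 FPKM in DM were the highest of the members in each condition. IGFBP2 had a single peak, in the GM list only. It covered the last 149 bases of the gene in the 3′ untranslated region (UTR), from 104648869 to 104649017, with a fold enrichment of 3.32, higher than 50.5% of GM peaks. The IGFBP2 level in DM was 63.4 FPKM, and why no peak was called there was not tested. An absent peak means only that none passed the threshold of the caller.

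The other peaks were found in both lists and formed 6 pairs of 1 GM and 1 DM peak with shared exonic bases. IGFBP5 had a pair at the 3′ end of its 3′UTR (fold enrichment 1.61 in GM and 2.03 in DM) and another 1139 bases from that end in GM and 1019 bases in DM (1.65 and 1.90). Both IGFBP5 pairs were thus a little higher in DM while the mRNA was 13.0 times lower there. The log10 of the exomePeak p-value went from -55.2 to -8.41 at the first and from -142 to -19.4 at the second, so in DM these ratios rest on weaker evidence than in GM.

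IGFBP4 had a peak in its 5′UTR at the start of the gene (2.05 in GM and 1.76 in DM) and another in the last 151 bases of its 3′UTR (1.59 and 1.87), with the same borders in both lists. The 5′ value was lower in DM and the 3′ value higher, at an mRNA level whose FPKM overlapped between the conditions. IGFBP6 had 1 peak annotated to the 5′UTR, of 330 bases with the same borders in both lists, at 2.47 in GM and 2.77 in DM. IGFBP3 had 1 peak in the 3′UTR at 1.90 in GM and 1.57 in DM, of 357 bases in GM and 565 bases in DM, the shorter inside the longer.

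None of the 6 pairs differed by more than 1.5-fold, where 25.0% of all 10239 such pairs did (14.2% higher and 10.8% lower in DM). The log2 ratios of DM over GM ran from -0.28 for IGFBP3 to 0.33 for the end of IGFBP5, 4 above 0 and 2 below, with a median of 0.18 against 0.07 over all pairs. Pairs of the same gene share their reads' source and are not independent. Among the 35 pairs in the other IGF system genes, 6 passed 1.5-fold, 4 higher and 2 lower in DM. The one farthest from equal was in the 3′UTR of IGF1, at 22.9 in GM and 4.79 in DM, where the GM mRNA level was 0.266 FPKM.

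**Figure D5:**
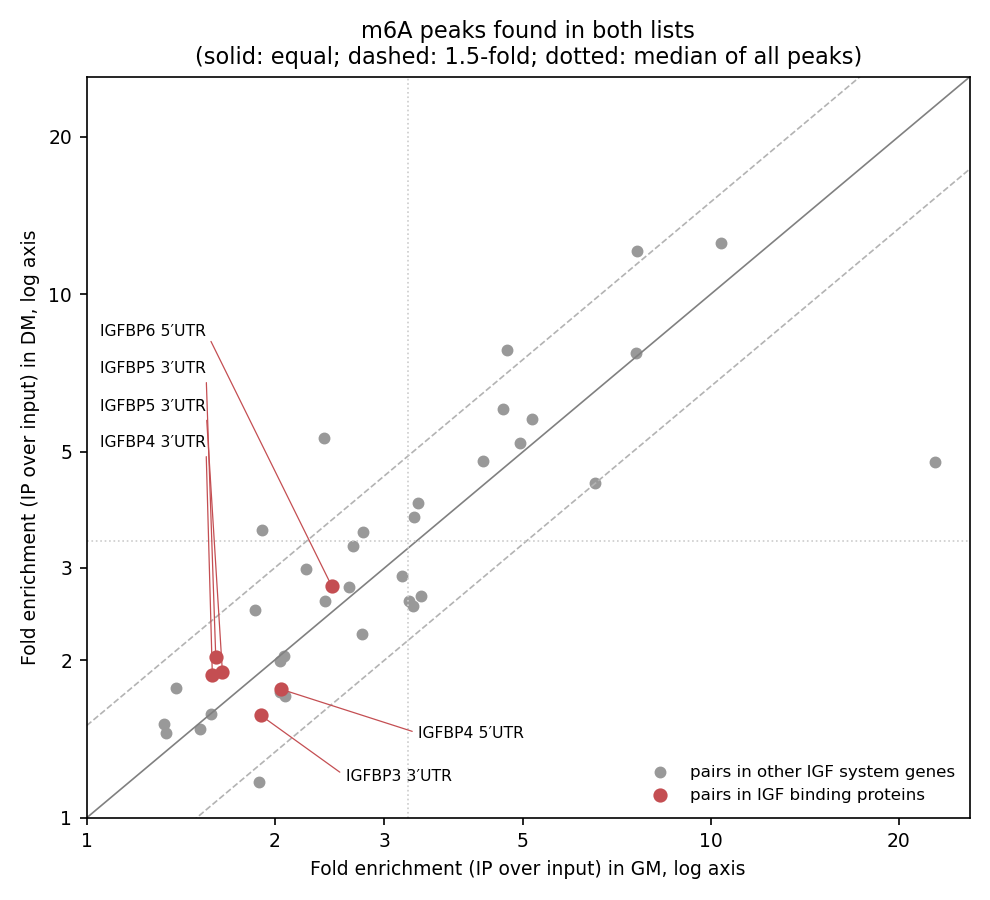
Fold enrichment of m6A peaks found in both lists, GM on the horizontal and DM on the vertical axis (log axes), 1 value per condition from pooled libraries, for 6 pairs in IGF binding proteins and 35 pairs in other IGF system genes. The 6 member pairs lie between the dashed 1.5-fold lines and under the dotted medians of all peaks (3.27 and 3.38).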

How the data were processed

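RNA from 3 GM and 3 DM cultures was sequenced as 12 libraries, 6 input and 6 immunoprecipitated. The authors mapped trimmed reads to the ARS-UCD1.2 assembly with HISAT2 and deposited StringTie FPKM per gene and input library. Peaks were called by the authors with exomePeak on the pooled libraries of a condition and annotated with ChIPseeker. The deposited lists give for each peak the fold enrichment ratio, the p-value, and its log10 (a score column here, with the log10 of the false discovery rate). Tool versions are not given in the sources used here. No column of between-condition comparisons was used.

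The 12302 of 18436 genes whose mean reached 0.5 FPKM were fitted with limma 3.58.1 in R 4.3.3, with a variance trend, on log2(FPKM + 1), which understates changes of low genes. Called genes had an unadjusted p under 0.05 and a fold over 1.5. The count-based test of the study was not repeated, since the table holds no counts. Adjusted p-values are Benjamini-Hochberg over all tested genes. Peaks were paired where exon blocks shared at least 1 base on the same strand and exactly 1 peak of each list was involved. The members, gene lists and tests were chosen with earlier results of these data known. Named genes were all members, every ligand and receptor, every other IGF system gene past the call rule, and the 3 nearest profiles of members with a log2 difference over 1 in size. IRS1 was named besides, as an adaptor that fell short of the call rule. Other list genes enter the counts only. Python 3.11.15 and pandas 2.3.3 read the tables. No sequence is printed.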

Additional observations from a re-analysis of the deposited data

How the results depend on the processing

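The fit over all genes was repeated with pseudocounts of 0.1 and 0.5, with no filter and a minimum of 1 FPKM, on TPM, with median-of-ratios size factors, without the variance trend, at an adjusted p under 0.05 and without each library in turn. Under each of these, 5 members met the thresholds, 4 lower and 1 higher in DM, on the values with which they were chosen. The log2 difference ran from -3.69 to -3.46 for IGFBP5, -1.45 to -1.30 for IGFBP3, -1.04 to -0.89 for IGFBP6, -0.91 to -0.71 for IGFBP2, 0.03 to 0.18 for IGFBP4 and 0.61 to 0.81 for IGFBP7. The IGF system count ran from 11 to 14 genes, and that of all genes from 1359 to 2014. The summed level of the members in DM over GM was 0.842 on TPM instead of 0.772, and 0.741 to 0.795 without 1 library. With a minimum fold enrichment of 2, 1 pair of member peaks was left instead of 6, which follows from the fewer peaks. No gene named from the members or the IGF system list changed direction, but the balance over all called genes did on TPM, from 858 lower of 1461 to 970 higher of 1762.

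The replicate numbers gave no sign of pairing: same-numbered GM and DM libraries had correlations of their deviations of -0.08, -0.12 and -0.21. Those with different numbers ran from -0.06 to 0.19. With 3 libraries per group these correlations depend on each other and cannot show whether the cultures were paired. With the replicate number as a block, 1473 genes were called instead of 1461, and 5 members.

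Peaks were called on pooled libraries and the peak lists hold no read counts, so m6A values have no replicate error and an absent peak sets no limit on methylation.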
